A study of Mus musculus with 4 samples.

Results

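The Rab GTPases are small membrane-bound proteins, each of which marks a particular set of vesicles or organelles. On the array, 132 of 45101 probe sets carried a single gene symbol made of Rab, a number and at most one letter from a to d, and these read 59 of the 18193 genes that the array names by a single symbol. RNA of whole mouse brains, taken at embryonic day 14.5 from animals of mixed 129SvJ/C57Bl/6J background, was hybridised to 4 Affymetrix arrays of 1 colour. The 2 double-knockout arrays came from embryos with Brn4::Cre and floxed alleles of Sox4 and Sox11 (flox/flox for both), and the 2 control arrays from embryos with the same floxed alleles and no Cre. Sox4 and Sox11 are SoxC transcription factors of newly formed neurons. Brn4 is another name of Pou3f4, and the labels do not list the cells in which the Cre is active, nor whether an array held 1 embryo or a pool. They call the arrays biological replicates. Every p-value of a gene rests on the spread between the 2 arrays of a group, which the test shares over probe sets of similar brightness.

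A Rab protein cycles between a form bound to GTP, which sits on a membrane and recruits effectors, and a form bound to GDP, which an inhibitor extracts from the membrane. Rab3 and Rab27 proteins act on vesicles that are about to fuse with the plasma membrane, Rab3a being abundant on synaptic vesicles. Rab5, Rab7 and Rab11 act on early, late and recycling endosomes, and Rab1, Rab2 and Rab6 between the endoplasmic reticulum and the Golgi apparatus.

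Of the 59 genes, 50 had a probe set bright enough to be tested, meaning a mean of log2(signal + 16) over the 4 arrays above the 40th percentile of all probe sets. A gene was read at its brightest probe set, and it is said to have risen or fallen where limma's Benjamini-Hochberg adjusted p over all 27022 probe sets tested was under 0.05. All changes are differences of log2(signal + 16), double knockout minus control, given with their SE. On this measure 8 Rab genes rose, 6 fell and 36 did not pass, so 28% were called, beside 27.3% of the 12489 genes tested. By direction, 16% of Rab genes and 16.3% of all genes rose, and 12% of Rab genes and 11% of all genes fell. Calls with a log2 change of at least 0.4 in size were made for 10 Rab genes (20%), beside 21.5% of all genes. The knockout and control arrays did not overlap for 38 Rab genes (76%), beside 66.9% of all genes. In this fit the share of Rab genes called was near that of all genes. It was above it with no filter (20.3% of Rab genes, 13.4% of all genes) and with any 1 array left out. It was below it with quantile normalization (26% and 27.9%), with probe sets averaged (26% and 26.7%) and with a filter at the 60th percentile (32.6% and 33.3%). Their median log2 change was 0.12, against 0.06 for all genes, and the Rab median was close to that of all genes with probe sets averaged (both 0.04) or with a filter at the 60th percentile (0.07 and 0.05). The median size of the change without its sign was 0.19, against 0.24.

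The members were sorted into lists by their known roles. Of the 6 neuronal exocytic genes 2 rose and 1 fell (50%), and of 5 tested other neuron-enriched genes 1 rose and 2 fell (60%). Of 28 widely expressed genes 3 rose and 2 fell, which is 17.9%. Over all genes tested 27.3% were called. These counts are a description, and no test compares the lists. With 2 arrays a group, precision is limited by their number throughout.

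As a check of the labels, all 6 Sox11 probe sets fell. Of 6 tested Sox4 probe sets 4 fell, with log2 changes of -1.09 to -2.70, while the brightest did not pass (37277.4 and 38262.9 in knockouts, 36047.5 and 34818.7 in controls, a log2 difference of 0.09). A further Sox4 probe set rose by 1.83, with 17453.9 and 16452.8 in knockouts against 5341.9 and 4255.2 in controls. Read at its brightest probe set, Sox4 thus did not pass, and where the probe sets lie relative to the deleted sequence was not examined. The tissue was checked with markers of 7 cell types. The 8 neuronal markers summed to signals of 93778.7 and 89673.7 in knockouts, against 107393.5 and 111683.5 in controls, and 4 of them fell and 3 rose. The 3 that rose were Syp, Snap25 and Syt1, and the 4 that fell were Tubb3, Dcx, Elavl3 and Stmn2. The 13 markers of microglia and macrophages all rose, with summed signals of 29480.8 and 27502.6 in knockouts, against 9594.4 and 10490.6 in controls. All 4 markers of cycling cells rose, as did 4 of 5 of endothelium and 2 of 5 of choroid plexus and ependyma. Of 4 tested erythroid markers 0 passed in limma and 1 had an unadjusted p under 0.05. Among all genes tested, 16.3% rose and 11% fell. In bulk tissue, a change in the number of cells of a type and a change in RNA per cell cannot be told apart. The arrays also differed in sex-linked transcripts. Xist, made from the inactive X of females, read 6852 to 25215.4 over its 3 probe sets on control 2, and 6.4 to 1670.4 on the other 3 arrays. Among those 3, knockout 2 read highest, at 228 to 1670.4. The Y-linked gene Eif2s3y, at its brighter probe set, read 3890.3 and 3577.6 in knockouts, 3484.3 on control 1 and 43.5 on control 2. The groups were thus not balanced in these transcripts.

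The 4 Rab3 genes encode close paralogs of regulated secretion, and they did not move together. Rab3d, and Rab3a at its brighter probe set, were about 2-fold higher in the knockout, and Rab3c was 1.40-fold lower. The other Rab3a probe set was 1.20-fold higher and did not pass. The promoters of Rab3a, Rab3d and Rab3c are shown because these paralogs were called in opposite directions at their brightest probe sets. That of Rab33a, the Rab gene with the largest fall, is shown too. Each line runs 5′ to 3′ on the gene's strand, from 250 bases before to 50 after a RefSeq start in build GRCm38.p6, with the dinucleotide CG in capitals.
Rab3a, chr8:70754453-70754752, + strand: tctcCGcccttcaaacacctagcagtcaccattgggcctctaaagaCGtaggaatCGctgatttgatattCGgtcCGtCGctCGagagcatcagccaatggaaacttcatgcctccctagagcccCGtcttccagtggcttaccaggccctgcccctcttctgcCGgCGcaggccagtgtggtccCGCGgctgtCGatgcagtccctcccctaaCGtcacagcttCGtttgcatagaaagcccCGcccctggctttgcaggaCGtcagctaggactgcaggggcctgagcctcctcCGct
Rab3d, chr9:21918134-21918433, - strand: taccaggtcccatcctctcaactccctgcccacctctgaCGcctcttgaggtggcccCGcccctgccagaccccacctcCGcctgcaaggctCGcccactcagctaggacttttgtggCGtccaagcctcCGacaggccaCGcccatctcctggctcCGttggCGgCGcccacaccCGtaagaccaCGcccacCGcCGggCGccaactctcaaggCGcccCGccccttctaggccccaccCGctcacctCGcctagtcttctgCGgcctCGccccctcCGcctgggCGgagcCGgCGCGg
Rab3c, chr13:110280157-110280456, - strand: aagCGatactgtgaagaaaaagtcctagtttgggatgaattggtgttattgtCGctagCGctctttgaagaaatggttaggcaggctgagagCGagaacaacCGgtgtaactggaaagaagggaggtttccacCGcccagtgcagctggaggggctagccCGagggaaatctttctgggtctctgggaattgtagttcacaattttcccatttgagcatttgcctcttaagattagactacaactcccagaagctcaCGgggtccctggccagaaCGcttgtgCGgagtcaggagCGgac
Rab33a, chrX:48519035-48519334, + strand: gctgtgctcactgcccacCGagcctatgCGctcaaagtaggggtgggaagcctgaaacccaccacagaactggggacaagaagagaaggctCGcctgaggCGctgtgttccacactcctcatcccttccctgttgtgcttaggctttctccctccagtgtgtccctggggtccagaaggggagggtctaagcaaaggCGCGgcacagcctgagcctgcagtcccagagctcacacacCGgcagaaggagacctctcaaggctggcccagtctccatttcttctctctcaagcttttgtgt
The windows of Rab3a and Rab3d, which rose, hold 18 and 26 CG dinucleotides and are 60% and 71.0% G or C. Those of Rab3c and Rab33a, which fell, hold 11 and 7, at 50.67% and 58.67%. The 4 windows were picked by the changes of their genes, and a link of composition to direction was not tested. Over all 32851 promoter windows of the table the medians are 7 CG and 52.67% G or C, and over the 60 windows of 48 matched Rab genes they are 19.5 and 61.17%. The words ACAAAG and ACAATG, cores of sequences that Sox proteins bind, and TGACGTCA, the cyclic AMP response element, were searched on both strands. None occurs in these 4 windows. One or both Sox words occur in 5 of the 60 Rab windows (8.33%), beside 28.6% of all windows, and TGACGTCA in 2 (3.33%), beside 1.79%. These shares are not matched for G or C content, which is higher in the Rab windows, and some genes have several windows. Whether Rab windows lack the Sox words beyond this was not tested. Windows were searched for 13 of the 14 Rab genes that rose or fell (all but Rab30), and among these Rab9b alone holds one of the words, ACAATG. Rab3a has 2 starts in the table, of which the upstream one is printed.

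Rab3a, the GTPase of synaptic vesicles, read signals of 7774.2 and 8172.3 in double-knockout brains, against 3791.1 and 4003.9 in controls, at its brighter probe set. Both knockout values lay well above both control values, and the log2 change was 1.03 ± 0.08 (limma adjusted p = 5.13e-05). The identifier of this probe set ends in _x_at, which marks probes that can also detect other transcripts. The other Rab3a probe set read 5172.2 and 4325.4 in knockouts and 3749.8 and 4168.4 in controls, a log2 change of 0.26 that did not pass (adjusted p = 0.11). Its 95% interval ran from 0.02 to 0.49 and lay below that of the first, 0.85 to 1.21. The size of the Rab3a change therefore differs between its probe sets, and the call rests on the one that can cross-detect.

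Rab3d, best known from secretory granules of exocrine glands, read 1741.3 and 1670 in knockouts and 825 and 816.3 in controls. The groups were far apart and each was narrow, and the log2 change was 1.04 ± 0.12 (limma adjusted p = 0.000295). Further Rab3d probe sets rose by 1.14 and 0.85, so 3 of 3 tested were called. The dimmest of these, at 0.85, was not called without knockout 1, knockout 2 or control 2. Of the Rab3 genes that rose, Rab3d had the call that more than one probe set gave.

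Rab3c, a neuronal Rab3 form, read 6857.2 and 6901.6 in knockouts and 9149.2 and 10184.7 in controls, a log2 change of -0.49 ± 0.08 (limma adjusted p = 0.00208). The knockout arrays nearly coincided and lay below both controls. Dimmer probe sets gave -0.56, -0.59 and -0.42, the first and second of them called. With single arrays left out the brightest kept its call, while the -0.56 was lost without knockout 1 or control 1 and the -0.59 without knockout 1, knockout 2 or control 1 (-0.31 without control 1). With no variance trend in the model, the brightest did not pass (adjusted p = 0.0579).

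The values of Rab3a and Rab3c can also be compared within each array, which restates the changes above and adds no further evidence. The log2 value of Rab3a minus that of Rab3c was 0.18 and 0.24 on the knockout arrays and -1.27 and -1.34 on the control arrays, a shift of 1.52. At the other Rab3a probe set, which was not called, the shift was 0.74. That of Rab3d minus Rab3c shifted by 1.53. Such a shift shows unequal change and is not a ratio of transcript numbers, since probe sets differ in brightness for the same amount of RNA. With 2 arrays a group the exact two-sided permutation test gave p = 0.333, the smallest it can give, so it cannot decide.

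**Figure D1:**
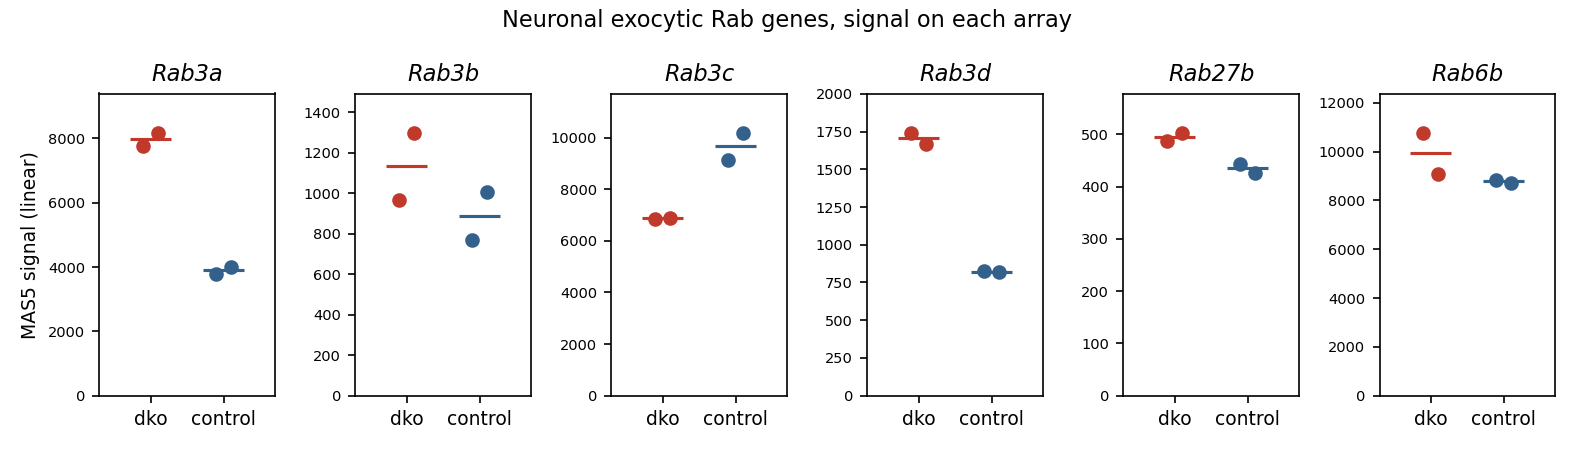
MAS5 signal on a linear scale (y axis, from 0) of the 6 neuronal exocytic Rab genes at their brightest probe set, double knockout (dko, red) left of control (blue). Each point is 1 array and each line the mean of 2: Rab3a and Rab3d are higher in the knockout, Rab3c is lower, and the points of Rab3b overlap.

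The other 3 neuronal exocytic genes did not pass. Rab3b, a Rab3 form of neurons and endocrine cells, read 966 and 1297 in knockouts, against 768.8 and 1003.6 in controls, and these overlap (log2 change 0.34 ± 0.18, limma adjusted p = 0.189, 95% interval -0.05 to 0.74). Each array moved this value by over 1.5 times: leaving out knockout 1 gave 0.55, knockout 2 gave 0.14, control 1 gave 0.15 and control 2 gave 0.53. Rab27b, a regulator of secretory granules and exosomes, read 486.6 and 502.6 in knockouts and 442.7 and 426.4 in controls (0.18 ± 0.16, interval -0.18 to 0.55). A dimmer Rab27b probe set gave 0.74 with wide error and an adjusted p of 0.0525, its knockout values being 337.3 and 560.3, against 248.6 and 259.8 in controls. Rab6b, the brain-enriched partner of the Golgi protein Rab6a, read 10768.9 and 9096.2 in knockouts and 8846.4 and 8715.6 in controls (0.17 ± 0.09, interval -0.02 to 0.37). The value was 0.29 without knockout 2, but 0.05 without knockout 1 and 0.03 with its probe sets averaged. At the brightest probe sets of these 3 genes the intervals include no change. They reach a fall of 0.18 (Rab27b) and a rise of 0.74 (Rab3b) on the log2 scale. The interval of the dimmer Rab27b probe set, 0.196 to 1.285, lay above 0.

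**Figure D2:**
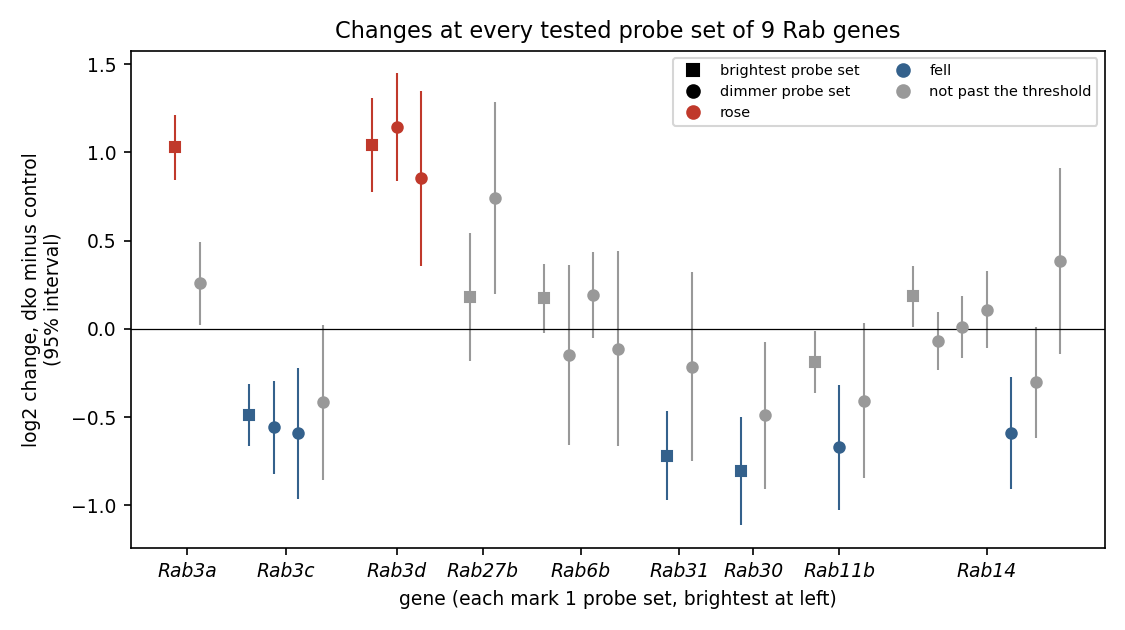
Log2 change, double knockout minus control (y axis), at every tested probe set of 9 Rab genes, with 95% intervals; squares are the brightest probe set of a gene, circles the dimmer ones, and colour gives the call. The 3 probe sets of Rab3d lie between 0.85 and 1.14, the 4 of Rab3c lie between -0.42 and -0.59, and the intervals of the Rab3a pair do not overlap.

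Rab genes read by several probe sets can be compared in this way. Of 32 genes with at least 2 tested probe sets, 20 had changes of 1 sign throughout, 23 had no call, 7 had 1 call and 2, Rab3c and Rab3d, had more than 1. None had calls in both directions. The same counts over all genes are not given, so these describe the Rab genes only. Rab11b, a recycling endosome GTPase of brain, fell at a dimmer probe set (-0.67, adjusted p = 0.0137) and not at its brightest (-0.19, adjusted p = 0.119). Rab14, of the Golgi and endosomes, fell at 1 of 7 probe sets (-0.59, adjusted p = 0.0146), while its brightest, shared with related transcripts by its _s_at suffix, gave 0.18. Both of these dimmer calls were lost without knockout 2 (-0.48 and -0.51).

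The other neuron-enriched Rabs included the largest fall among the 50 tested genes, that of Rab33a. This GTPase, which in cultured rat neurons acts on vesicles that supply the growing axon, read 1492.1 and 1607 in double-knockout brains, against 3872.8 and 4737.5 in controls. The knockout arrays held well under the lower control, 2.75-fold lower on average (log2 change -1.46 ± 0.12, limma adjusted p = 5.14e-05). Rab9b, a relative of the endosome-to-Golgi protein Rab9, read 934.5 and 981.9 in knockouts and 1281.7 and 1472.9 in controls (-0.51 ± 0.13, adjusted p = 0.017). Rab33a and Rab9b are both X-linked, and control 2 was the array with high Xist. Without control 2, Rab33a fell by 1.31, and Rab9b fell by 0.41 and was not called. That fit left 1 control array, whose spread could not be measured. Rab9b was not called without knockout 1 (-0.48) or knockout 2 (-0.55) either. The other X-linked members, Rab9 and Rab39b, had log2 differences of 0.10 and 0.07 and did not pass.

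Rab40b, which joins a cullin ubiquitin ligase through a SOCS box, read 1376.6 and 1303.1 in knockouts and 531.6 and 738.6 in controls. Both knockout values lay above both controls (log2 change 1.08 ± 0.16, limma adjusted p = 0.00141). Rab39b, whose human form is mutated in an X-linked intellectual disability, and Rab15, of neuronal endocytic recycling, did not pass (0.07 and 0.03, with intervals of -0.18 to 0.31 and -0.22 to 0.27). So among genes of neurons 1 more member rose, 2 fell and 2 lay close to no change.

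Rab26, a vesicle GTPase linked to autophagy of synaptic vesicles, was too dim on average to enter the test and was singled out after its values were seen. Its only probe set read 298.2 and 284.1 in knockouts, against 51.5 and 40.6 in controls. The knockout arrays were several times above the controls, and both controls lay under the cutoff for testing, a signal of 154.6. In the fit with no filter on dim probe sets, the log2 change was 2.31 ± 0.33 (limma adjusted p = 0.00783), and 1.69 with a pseudocount of 64 in place of 16. Leaving out knockout 1 ended that call at 2.28, as did leaving out knockout 2, at 2.35. Rab26 did not pass the average filter, so it is not counted with the 50. A gene with 1 dim group can pass that filter only through the other group.

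Of the 28 widely expressed Rabs, 23 did not pass, so 17.9% were called, beside 27.3% of all genes. Among 14 endosomal genes, Rab21, of integrin traffic, rose and Rab35, of recycling endosomes, fell. Rab21 read 3197.4 and 2775.4 in knockouts and 2200.3 and 2335.6 in controls (log2 change 0.39 ± 0.11, limma adjusted p = 0.025). Its dimmer probe set gave -0.03, with overlapping groups, and the average of both gave 0.18 and no call. Rab35 read 1870.8 and 2083.9 in knockouts and 2580.9 and 2398.8 in controls (-0.33 ± 0.11, adjusted p = 0.0499). Both calls were marginal. Rab21 was lost without knockout 1 (0.29) or control 1 (0.35), and Rab35 with any 1 of the 4 arrays left out (-0.25 and -0.41 without knockouts 1 and 2, -0.28 and -0.38 without controls 1 and 2). The early endosome genes Rab5a, Rab5b and Rab5c gave log2 differences of 0.01, -0.03 and -0.05, and the late endosome gene Rab7 gave 0.05. Their 95% intervals were -0.17 to 0.18, -0.38 to 0.33, -0.23 to 0.13 and -0.12 to 0.21.

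Of 14 genes of the endoplasmic reticulum, Golgi and secretory route, 2 rose and 1 fell (21.4%, beside 27.3% of all genes). Rab8b, which with Rab8a carries cargo from the Golgi to the plasma membrane, read 9739 and 10136.6 in knockouts and 7037.4 and 7196.3 in controls (log2 change 0.48 ± 0.07, limma adjusted p = 0.00139). With no variance trend it did not pass (adjusted p = 0.051). Rab8a, its paralog, gave 0.14 and did not pass (interval -0.07 to 0.35). Rab33b, a Golgi protein that binds the autophagy factor Atg16l1 and is the paralog of Rab33a, read 2957.5 and 2628.4 in knockouts and 2087.3 and 2282.9 in controls (0.35 ± 0.11, adjusted p = 0.0399). It was not called without knockout 1 (0.27), knockout 2 (0.43) or control 1 (0.29). Rab33a and Rab33b were thus called in opposite directions, as were Rab3a and Rab3c at their brightest probe sets. Rab30, a Golgi-associated Rab, read 1068.9 and 1147.2 in knockouts and 1717.8 and 2207.6 in controls, with both knockout arrays lower (-0.81 ± 0.14, adjusted p = 0.00266). Its dimmer probe set gave -0.49 and did not pass (adjusted p = 0.0868). Rab1a, Rab2a, Rab6a and Rab18, of early secretion and lipid droplets, gave log2 differences of 0.03, -0.10, -0.01 and -0.01 with SEs of 0.06 to 0.08.

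**Figure D3:**
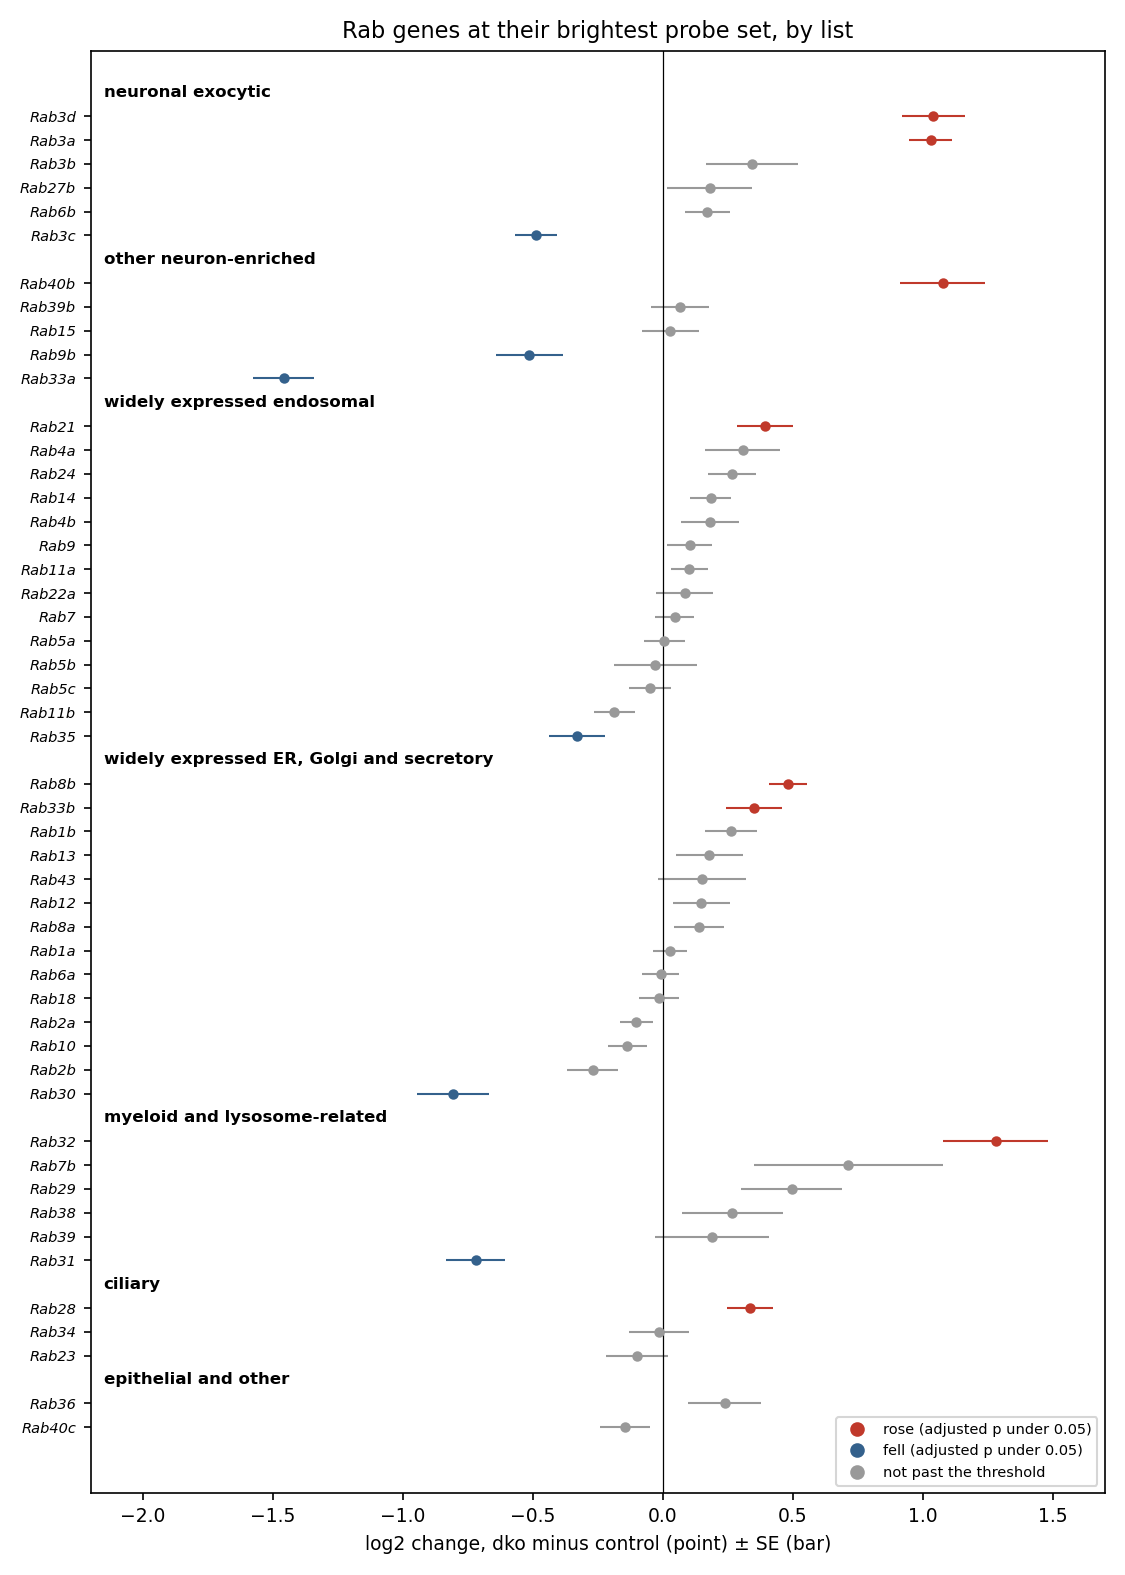
Log2 change, double knockout minus control (x axis; point) with its SE (bar), of the 50 tested Rab genes at their brightest probe set, grouped by list; red genes rose, blue genes fell and grey genes did not pass. Most genes of the widely expressed lists sit near 0, though Rab30 of these lists lies at -0.81. The range runs from Rab33a, of the other neuron-enriched list, at -1.46 to Rab32, of the myeloid list, at 1.28.

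Of 10 Rabs of myeloid cells and lysosome-related organelles, 6 were tested, and 1 rose and 1 fell. The called share was 33.3%, beside 27.3% of all genes, and 4 of the 6 did not pass. Their median log2 change was 0.38, against 0.06 for all genes. That median includes Rab7b, which passed the filter only through the knockout arrays. Rab32, which acts on melanosomes and on phagosomes of macrophages, read 502.3 and 603.9 in double-knockout brains, against 240.6 and 196.4 in controls. The knockout values were more than 2-fold higher (log2 change 1.28 ± 0.20, limma adjusted p = 0.00175), the largest rise among the 50 tested Rab genes. The 13 microglia and macrophage markers rose beside it, with log2 changes of 0.36 to 2.35 and a median of 1.60, and none was at 0. Of 6 markers of melanocytes and pigment epithelium, Dct rose (1219.3 and 1388.1 in knockouts, 470.6 and 428.7 in controls), the other 5 were too dim to test, and the summed signals were 1682.8 and 1937.6 in knockouts, against 754.8 and 625.4 in controls. The part of either cell type in the Rab32 result was not tested.

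Rab31, a relative of Rab5 that acts between the Golgi and endosomes, read 1444.5 and 1624.7 in knockouts and 2413.5 and 2658.9 in controls. It fell while the macrophage markers rose (log2 change -0.72 ± 0.11, limma adjusted p = 0.0017), and its dimmer probe set gave -0.21 and did not pass. Rab7b, which limits Toll-like receptor signalling in macrophages, read 230.9 and 215.2 in knockouts and 199.7 and 82.4 in controls, so that the 2 control arrays lay far apart (0.71 ± 0.36, adjusted p = 0.186). Its log2 difference was 1.28 without control 1 and 0.15 without control 2. Rab29, a lysosomal Rab that recruits the kinase Lrrk2, read 433.6 and 462.6 in knockouts and 351.1 and 278.7 in controls (0.50 ± 0.19, adjusted p = 0.0912). Rab38, the melanosomal paralog of Rab32, read 387.4 and 344.8 in knockouts and 290 and 312 in controls (0.27 ± 0.19, adjusted p = 0.354). Rab39, of phagosomes, read 266.8 and 309.5 in knockouts and 233.2 and 267.7 in controls, which overlap (0.19 ± 0.22).

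The remaining 4 members of the myeloid list were too dim to test. Rab20, of macrophage phagosomes, read 31.6 and 6.1 in knockouts and 48 and 45.4 in controls. Over their probe sets, Rab27a, of melanosomes and cytotoxic granules, read 13.2 to 100 in knockouts and 0.7 to 96.6 in controls, and Rab37, of mast cell granules, 37.1 to 146.8 in knockouts and 38.8 to 129.4 in controls. Rab44 read 8.9 and 108.8 in knockouts and 55.4 and 6.8 in controls. One Rab27a probe set read 42.3 and 39.6 in knockouts, against 3.8 and 3.8 in controls, and in the fit with no filter it did not pass (adjusted p = 0.0579). These signals lie in the range where 2 arrays of a group can differ several-fold, and no level is drawn from them.

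**Figure D4:**
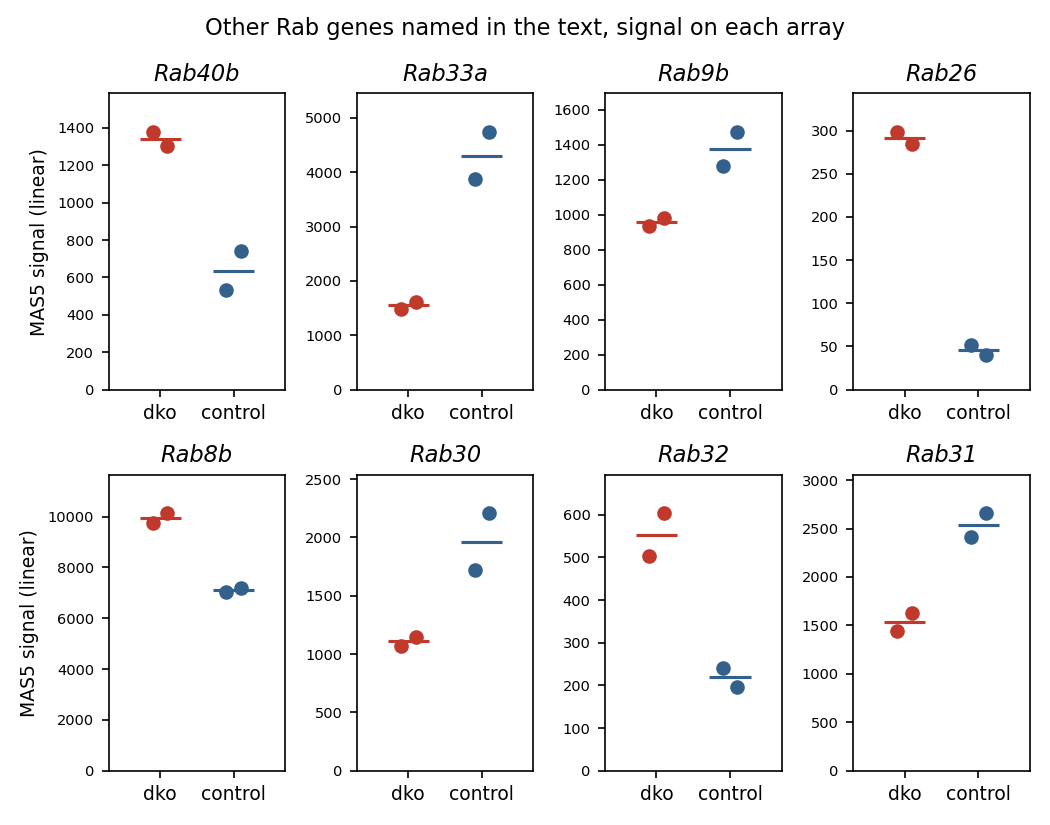
MAS5 signal on a linear scale (y axis, from 0) of 8 other Rab genes, double knockout (dko, red) left of control (blue); each point is 1 array and each line the mean of 2. Rab40b, Rab26, Rab8b and Rab32 are higher in the knockout on both arrays, and Rab33a, Rab9b, Rab30 and Rab31 are lower on both.

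Of 3 ciliary members, Rab28, of photoreceptor cilia, rose, with 5067.4 and 5522.3 in knockouts and 4340.6 and 4042.7 in controls (log2 change 0.34 ± 0.09, limma adjusted p = 0.0225). That call was lost without knockout 2 (0.27) or control 2 (0.28). Rab23, which restrains hedgehog signalling, and Rab34, needed for cilium formation, gave -0.10 and -0.01. Neither of the 2 tested members of the epithelial and other list, Rab36 (0.24) and Rab40c (-0.15), passed limma's test, and 0 of the 2 had an unadjusted p under 0.05. The epithelial genes Rab17 and Rab25, with Rab19 and Rab42, were too dim to test, at 9.8 to 136.9 over all arrays.

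The proteins that serve the Rabs were read in the same fit. Of 7 general cofactors 2 rose, namely Rabac1, which helps free Rabs from their GDP inhibitor (8913.2 and 8837.1 in knockouts, 5847.9 and 6303.8 in controls, log2 change 0.55 ± 0.08, limma adjusted p = 0.000977), and Rabggtb, the catalytic subunit of the transferase that attaches lipids to Rabs (0.54 ± 0.10, adjusted p = 0.00311). None of 16 tested effectors and regulators of Rab3 and Rab27 passed in limma, and 1 had an unadjusted p under 0.05. Their median log2 change was -0.02 and their range -0.28 to 0.22. Among them, Rims1 and Rims2, active zone partners of Rab3, gave -0.18 and -0.28, and Rph3a (rabphilin) gave -0.03. The called share was 0% in this list and 28.6% among the cofactors, beside 27.3% of all genes tested. No test compares these lists with all genes.

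Effectors of endosomal Rabs changed in a few members. Of 16 that serve Rab5 and Rab7, 2 rose, Eea1, a tether of early endosomes (0.42 ± 0.12, limma adjusted p = 0.0335), and Tbc1d15, which inactivates Rab7 (0.33 ± 0.09, adjusted p = 0.0216). Eea1 was not called without knockout 2 (0.30), control 1 (0.46) or control 2 (0.39), and Tbc1d15 with any 1 array left out (0.30 to 0.36). Of 16 that serve Rab6, Rab8, Rab10 and Rab11, 2 rose and 3 fell. The called share was 12.5% for the Rab5 and Rab7 list and 31.25% for this one, beside 27.3% of all genes. Sh3bp5, an exchange factor of Rab11, read 2729.3 and 2792.4 in knockouts and 6026.8 and 6459.9 in controls, the largest fall of these lists (-1.17 ± 0.09, adjusted p = 4.2e-05). Rab11fip4, an effector of Rab11, fell by 0.65 (0.50 and not called without knockout 1) and Rab11fip2 by 0.28 (not called with any 1 array left out, -0.25 to -0.30). Myo5b, a myosin that Rab11 recruits, rose by 0.68, and Evi5, which binds Rab11, by 0.43. Myo5b was not called without knockout 1 (0.76), knockout 2 (0.59) or control 2 (0.51), nor Evi5 without knockout 2 (0.40). Rab11a, the widely expressed Rab11, gave 0.10 ± 0.07 and did not pass.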

How the data were processed

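The authors deposited 1 table of linear intensities per probe set. MAS5 version 5.0 is named in the submitters' processing notes, and the genome build of that processing is not stated in them. Each array's trimmed mean (2% off both ends) was 1000, which shows scaling by 1 factor per array, and a shift of most transcripts in 1 group would be removed. No per-sample column was left unused.

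Of 45101 probe sets, 64 array controls were left out. Symbols came from the platform annotation, and all 132 Rab probe sets matched RefSeq by gene ID, with 0 symbols updated. Signals were transformed as log2(signal + 16), a scale on which changes of dim genes come out too small. Probe sets with a mean above the 40th percentile (7.41, a signal of 154.6) were kept, 27022 in all. The test was limma 3.58.1 in R 4.3.3 (lmFit, eBayes with a variance trend, 2 residual and 8.33 prior degrees of freedom), with Benjamini-Hochberg adjustment. SDs are not printed where both values are. The steps were tested on simulated data.

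Members and lists were chosen with earlier results of these data known. Named by rule were the 6 neuronal exocytic Rabs, called Rabs with a change of at least 0.4, the myeloid list, Sox4, Sox11 and 2 to 4 called members of each effector list. Others complete counts of 5 or fewer, or give the range of a list, and were chosen after their values were seen, as were the probe sets of Rab11b, Rab14 and Rab26.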

Additional observations from a re-analysis of the deposited data

How the results depend on the processing

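Of 21 Rab genes followed over 16 alternatives, 0 changed sign. Of the 14 called, 6 kept their call under every alternative that could be run (Rab3d, Rab30, Rab31, Rab32, Rab33a and Rab40b), and 9 with each array left out in turn. Without the variance trend, 3114 probe sets were called in place of 6277, and 7 Rab genes, of which 4 rose and 3 fell (14%, beside 12.9% of all genes). Leaving out 1 array gave 3132 to 5422 called probe sets, 10 to 13 called Rab genes (20.4% to 25.5%, beside 14.4% to 21.5% of all genes), 6 to 9 that rose and 4 to 5 that fell, and 3 to 4 called neuronal exocytic genes. The lone array of a group was then taken to vary like the pair. The median log2 change of all Rab genes was 0.123 as reported, 0.084 to 0.117 with an array left out, 0.16 with median centring, 0.10 with no filter, 0.067 with a filter at the 60th percentile and 0.043 with a gene's probe sets averaged. The all-gene medians were 0.057, 0.054 to 0.062, 0.098, 0.044, 0.047 and 0.036 in the same order. It was 0.10 without probe sets ending in _x_at or _s_at, an alternative chosen after seeing the data, under which Rab3a did not pass (0.26) and 13 Rab genes were called. The median of the neuronal exocytic genes was 0.26 as reported, 0.20 to 0.38 with an array left out and 0.40 with probe sets averaged. Quantile normalization called 13 Rab genes, pseudocounts of 1 and 64 called 14 each, and a threshold of 0.1 called 18. The replicate block called 14 Rab genes and 6844 probe sets. Arrays share only a replicate number, and the correlation of same-numbered deviations was -0.006. The cause of these differences was not tested. No detection calls were used, so dim signals set no level.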
